A study of Schizosaccharomyces pombe with 24 samples.

Results

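The core histone genes and the gene for the histone variant H2A.Z of the fission yeast Schizosaccharomyces pombe were followed through a set of strains that lack histone acetyltransferases (HATs), the enzymes that add acetyl groups to lysines in histone tails. The members were chosen by gene symbol, namely the 3 histone H3 genes hht1, hht2 and hht3, the 3 histone H4 genes hhf1, hhf2 and hhf3, the 2 H2A genes hta1 and hta2, the H2B gene htb1 and the H2A.Z gene pht1. All 10 genes were measured, by 13 probe sets in all, among the 4981 features of the array that were tested, and the brightest probe set spoke for each gene.

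Total RNA of asynchronous cultures grown at 30 °C was hybridised to Affymetrix Yeast Genome arrays, 1 array per culture and 24 arrays in all. The mutant groups were Δgcn5 (3 arrays), Δmst2 (3 arrays), Δgcn5 Δmst2 (3 arrays), mst1-ts (3 arrays), Δelp3 (3 arrays), Δgcn5 Δelp3 (2 arrays), Δmst2 Δelp3 (3 arrays) and the triple mutant Δgcn5 Δelp3 Δmst2 (1 array), set against wild type (3 arrays). Gcn5 and Mst2 are acetyltransferases that act mainly on histone H3, Elp3 is the catalytic subunit of the Elongator complex, and Mst1 is the essential acetyltransferase of the NuA4 complex. All strains, wild type included, carried mutant ura4 and ade6 alleles, and all but mst1-ts, whose construct brings in leu1+, a mutant leu1 allele. The Δmst2 strains had ura4+, and the Δgcn5 and Δelp3 strains a kanMX cassette, in place of the deleted gene. The mst1-ts strain had a kanMX6 cassette in place of its own mst1 gene. It expressed a temperature-sensitive copy from an nmt promoter at leu1, at a temperature that lets it grow. By the study's strain list the Δgcn5 strain was of mating type h- and the other mutant strains were h+. The Δgcn5 and Δgcn5 Δmst2 strains also carried a his3 deletion. The study's methods describe the replicates as independent isolates, and the study describes slow growth of Δelp3 cells and severe growth defects of mst1-ts and the triple mutant.

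Histones H3, H4, H2A and H2B form the octamer around which DNA is wrapped, and their genes are transcribed mainly while DNA is replicated, so that new chromatin can be assembled. In fission yeast the GATA-type factor Ams2 activates this S phase transcription and the HIRA proteins keep histone genes silent in the rest of the cycle. H2A.Z replaces H2A at many promoters, where the SWR1 complex exchanges it into nucleosomes, and its gene is regulated apart from those of the core histones.

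Of these genes, 8 lie in 4 pairs of neighbouring genes that are transcribed away from each other from a shared intergenic region. The H3 and H4 genes form 3 of these pairs, namely hht1 (SPAC1834.04) with hhf1 (SPAC1834.03c) on chromosome I, hht2 (SPBC8D2.04) with hhf2 (SPBC8D2.03c) on chromosome II, and hht3 (SPBC1105.11c) with hhf3 (SPBC1105.12) on chromosome II. The fourth pair is hta1 (SPCC622.08c) with htb1 (SPCC622.09) on chromosome III. The second H2A gene hta2 (SPAC19G12.06c, chromosome I) and pht1 (SPBC11B10.10c, chromosome II) have no other histone gene beside them. The copies of H3 and of H4 are near-identical genes, so a probe set can also bind transcripts of a sister copy, and the values of single copies are uncertain to that extent.

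The targeted genes followed most but not all labels. The elp3 transcript was between 5.93 and 6.98 (log2 RMA values, as all levels here) in the 9 arrays of Elp3-deficient strains, against 11.04 to 12.03 in the other 15 arrays. Replicate 2 of the arrays labelled Δgcn5 held gcn5 RNA at 10.93 while mst2 was at 5.21, and replicate 2 of the arrays labelled Δmst2 held mst2 RNA at 10.01 while gcn5 was at 5.43, each the reverse of its label. The array labelled wild type replicate 2 had ura4 at 12.85, where replicates 1 and 3 had 7.40 and 7.45. The mst1-ts arrays carry the title of a temperature-sensitive mst2 strain, but their genotype label names mst1. Their mst1 transcript was above that of wild type by 1.23 ± 0.17 (log2 fold change ± SE). All arrays of the Elp3-deficient strains and replicate 3 of Δgcn5 Δmst2 (10 arrays) carry a later experiment date than the other 14 arrays. Loss of Elp3 and this date therefore cannot be told apart in a comparison with wild type, except through the Δgcn5 Δmst2 group, which has arrays of both dates.

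The values of the H3 and H4 genes lay between 12.54 (hhf3 in replicate 2 of Δmst2 Δelp3) and 14.85 (hht1 in replicate 1 of Δmst2), and those of pht1 between 11.49 and 12.39. The median of an array was between 10.99 and 11.08 and its highest value between 15.19 and 15.35. As each level depends on its own probes, genes are compared by their changes and not by their levels. Over the 8 comparisons with wild type the changes of single members ranged from -0.79 (hhf1, Δmst2 Δelp3) to 0.47 (pht1, mst1-ts). The plot of levels by strain shows every array.

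**Figure D1:**
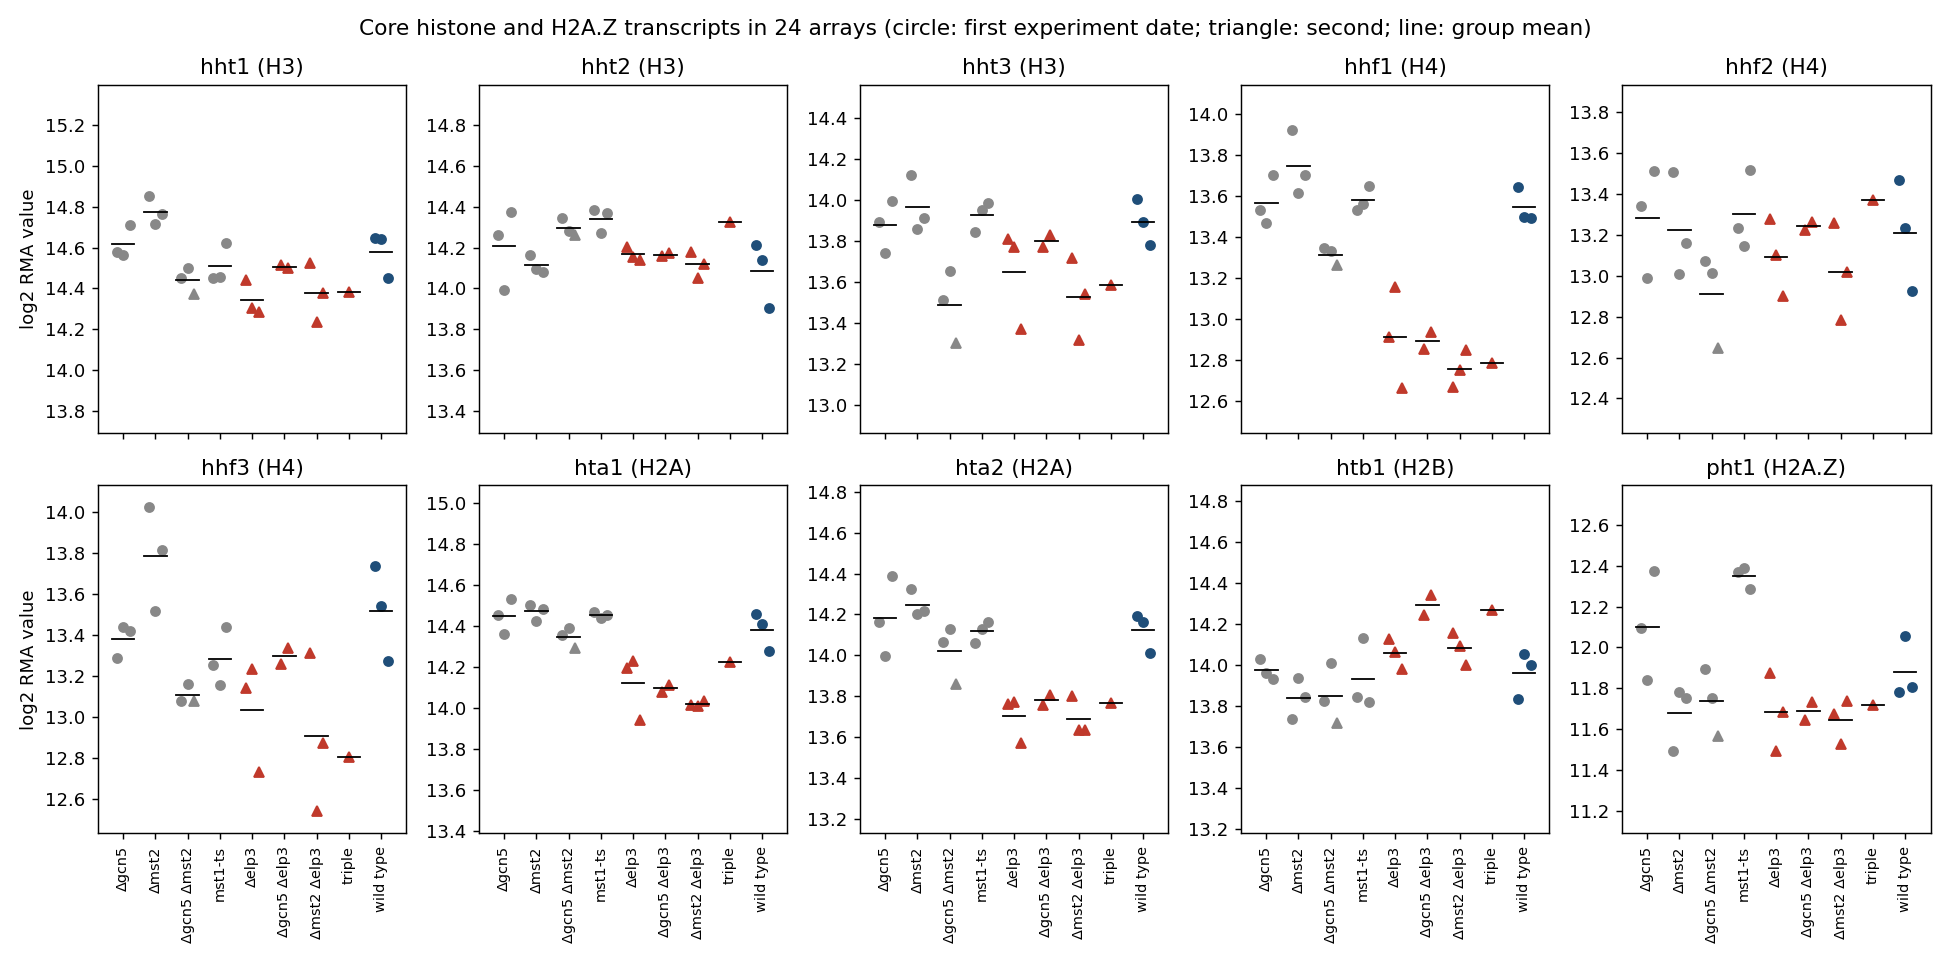
Level of each of the 10 transcripts (log2 RMA value, vertical axes of equal length) in the 8 mutant groups and, at the right of each panel, wild type. Each point is 1 array, red points lack Elp3, triangles are arrays of the second experiment date and lines are group means. The 9 red points of hhf1, hta1 and hta2 all lie below the other 15 points, while those of htb1 lie in the upper range of the other points or above it.

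Loss of Elp3 came with lower levels of one H4 gene and of both H2A genes. In Δelp3 cells hhf1, hta2 and hta1 fell relative to wild type (limma, adjusted p under 0.05 over all 4981 features), and none of the 10 members rose. These are 3 of 10 members called lower, where 8.49% of all features were called lower and 13% higher. The median change of the 10 members was -0.24, against 0.02 over all features. Taken apart, the H3 and H4 genes had 1 of 6 called lower (median -0.24) and the H2A and H2B genes 2 of 3 (median -0.26).

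The H4 gene hhf1 had the largest change of all members. It was at 12.91, 13.16 and 12.66 in the Δelp3 arrays, against 13.65, 13.50 and 13.49 in the wild-type arrays, so that the groups did not overlap. The log2 fold change was -0.63 ± 0.11 (SE, 95% confidence interval -0.87 to -0.40, adjusted p = 0.000868), which means that its level fell by 35.6%. In the double mutants without Elp3 the level was also below every wild-type array, at 12.85 and 12.93 in Δgcn5 Δelp3 and at 12.67, 12.75 and 12.85 in Δmst2 Δelp3. The log2 fold change was -0.65 ± 0.13 in Δgcn5 Δelp3 (adjusted p = 0.00164) and -0.79 ± 0.11 in Δmst2 Δelp3 (adjusted p = 0.000159). The single array of the triple mutant gave 12.78 and a log2 fold change of -0.76 ± 0.16 (adjusted p = 0.00484), a test that takes its spread from the other groups. These 4 calls on hhf1 held in every fit that left out 1 library and kept the strain compared. The only array of the triple mutant could not be left out for its own call.

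Both H2A genes fell along with it. The level of hta2 was 13.76, 13.77 and 13.57 in Δelp3, against 14.19, 14.16 and 14.01 in wild type, and its log2 fold change was -0.42 ± 0.10 (adjusted p = 0.00822). The level of hta1, the H2A gene paired with htb1, was 14.20, 14.23 and 13.94 in Δelp3, against 14.46, 14.41 and 14.28 in wild type, with a log2 fold change of -0.26 ± 0.08 (adjusted p = 0.0330). Neither gene overlapped between the 2 groups. The call on hta1 ended without wild type replicate 1 (adjusted p = 0.112), without wild type replicate 2 (adjusted p = 0.0941) and without Δelp3 replicate 3 (adjusted p = 0.175, log2 fold change -0.17), as well as after quantile normalisation of the arrays (adjusted p = 0.0591), whereas the call on hta2 held in each such fit.

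The other H4 and H3 genes did not pass the test in Δelp3. The H4 gene hhf3 was at 13.14, 13.23 and 12.73, against 13.73, 13.54 and 13.27 in wild type, a log2 fold change of -0.48 ± 0.18 (adjusted p = 0.0606), and the third H4 gene hhf2 had -0.11 ± 0.18 (adjusted p = 0.685). The H3 genes hht1 and hht3 had log2 fold changes of -0.23 ± 0.09 (adjusted p = 0.0763) and -0.24 ± 0.13 (adjusted p = 0.197), and hht2 had 0.08 ± 0.10. Of the H2B gene htb1 (0.09 ± 0.10) and the H2A.Z gene pht1 (-0.20 ± 0.14) the confidence intervals also included 0. Among the genes below the threshold, hhf3 and hht1 were the nearest to it, and both passed in the fit without wild type replicate 3 (adjusted p = 0.0378 for hhf3 and 0.0475 for hht1).

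In both double mutants without Elp3, hhf1, hta1 and hta2 fell again and 1 more member was called. In Δgcn5 Δelp3, hhf1, hta1 (log2 fold change -0.29 ± 0.09, adjusted p = 0.0355) and hta2 (-0.34 ± 0.12, adjusted p = 0.0451) fell, where 9.01% of all features were called lower, and htb1 rose, where 12.5% were called higher. The H2B transcript was at 14.24 and 14.34 in Δgcn5 Δelp3, against 13.83, 14.06 and 14.00 in wild type, so that both mutant arrays were above all 3 wild-type arrays, with a log2 fold change of 0.33 ± 0.11 (adjusted p = 0.0489). This call lay at the threshold, as it ended in 18 of the 24 fits that left out 1 array. Most of these left out an array of another group, where the log2 fold change stayed at 0.33 and the adjusted p was at most 0.0582. Without wild type replicate 1 the log2 fold change was 0.26 (adjusted p = 0.151), and without Δgcn5 Δelp3 replicate 2 it was 0.28. The call on hta2 ended in 13 of the 24 fits (log2 fold change -0.32 without Δgcn5 Δelp3 replicate 1). That on hta1 ended in 4, namely without wild type replicate 1 (adjusted p = 0.101) or 2 (0.0837) and without Δgcn5 Δelp3 replicate 1 or 2 (log2 fold changes -0.27 and -0.30). Quantile normalisation also ended the call on hta1 (adjusted p = 0.0988). None of the 6 H3 and H4 genes other than hhf1 was called in this strain, with log2 fold changes between -0.22 (hhf3) and 0.08 (hht2). The median of the 10 members was -0.14, against 0.02 over all features.

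In Δmst2 Δelp3, 4 members fell and none rose, where 9.19% of all features were called lower and 12.7% higher. Beside hhf1 these were hta1 (14.01, 14.01 and 14.03, log2 fold change -0.36 ± 0.08, adjusted p = 0.00530), hta2 (13.80, 13.64 and 13.63, log2 fold change -0.43 ± 0.10, adjusted p = 0.00741) and hhf3. The H4 gene hhf3 was at 13.31, 12.54 and 12.87 in Δmst2 Δelp3, against 13.73, 13.54 and 13.27 in wild type, a log2 fold change of -0.61 ± 0.18 (adjusted p = 0.0207). Its highest mutant array lay above its lowest wild-type array. The call on hhf3 ended without wild type replicate 1 (adjusted p = 0.0893) or 2 (0.0575) and without Δmst2 Δelp3 replicate 2 (0.131) or 3 (0.0587). Its neighbour hht3 had a log2 fold change of -0.37 ± 0.13 and did not pass (adjusted p = 0.0533). The median of the 10 members was -0.30, against 0.02 over all features, with -0.28 for the H3 and H4 genes (2 of 6 called lower) and -0.36 for the H2A and H2B genes (2 of 3 called lower).

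In the triple mutant only hhf1 was called among the members, where 5.4% of all features were called lower and 6.36% higher. With 1 array the other members had wide intervals. The log2 fold change was -0.71 (95% confidence interval -1.24 to -0.19, adjusted p = 0.0728) for hhf3, -0.35 (-0.66 to -0.04) for hta2 and 0.30 (-0.00 to 0.61) for htb1. The median of the 10 members was -0.18, against -0.01 over all features.

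**Figure D2:**
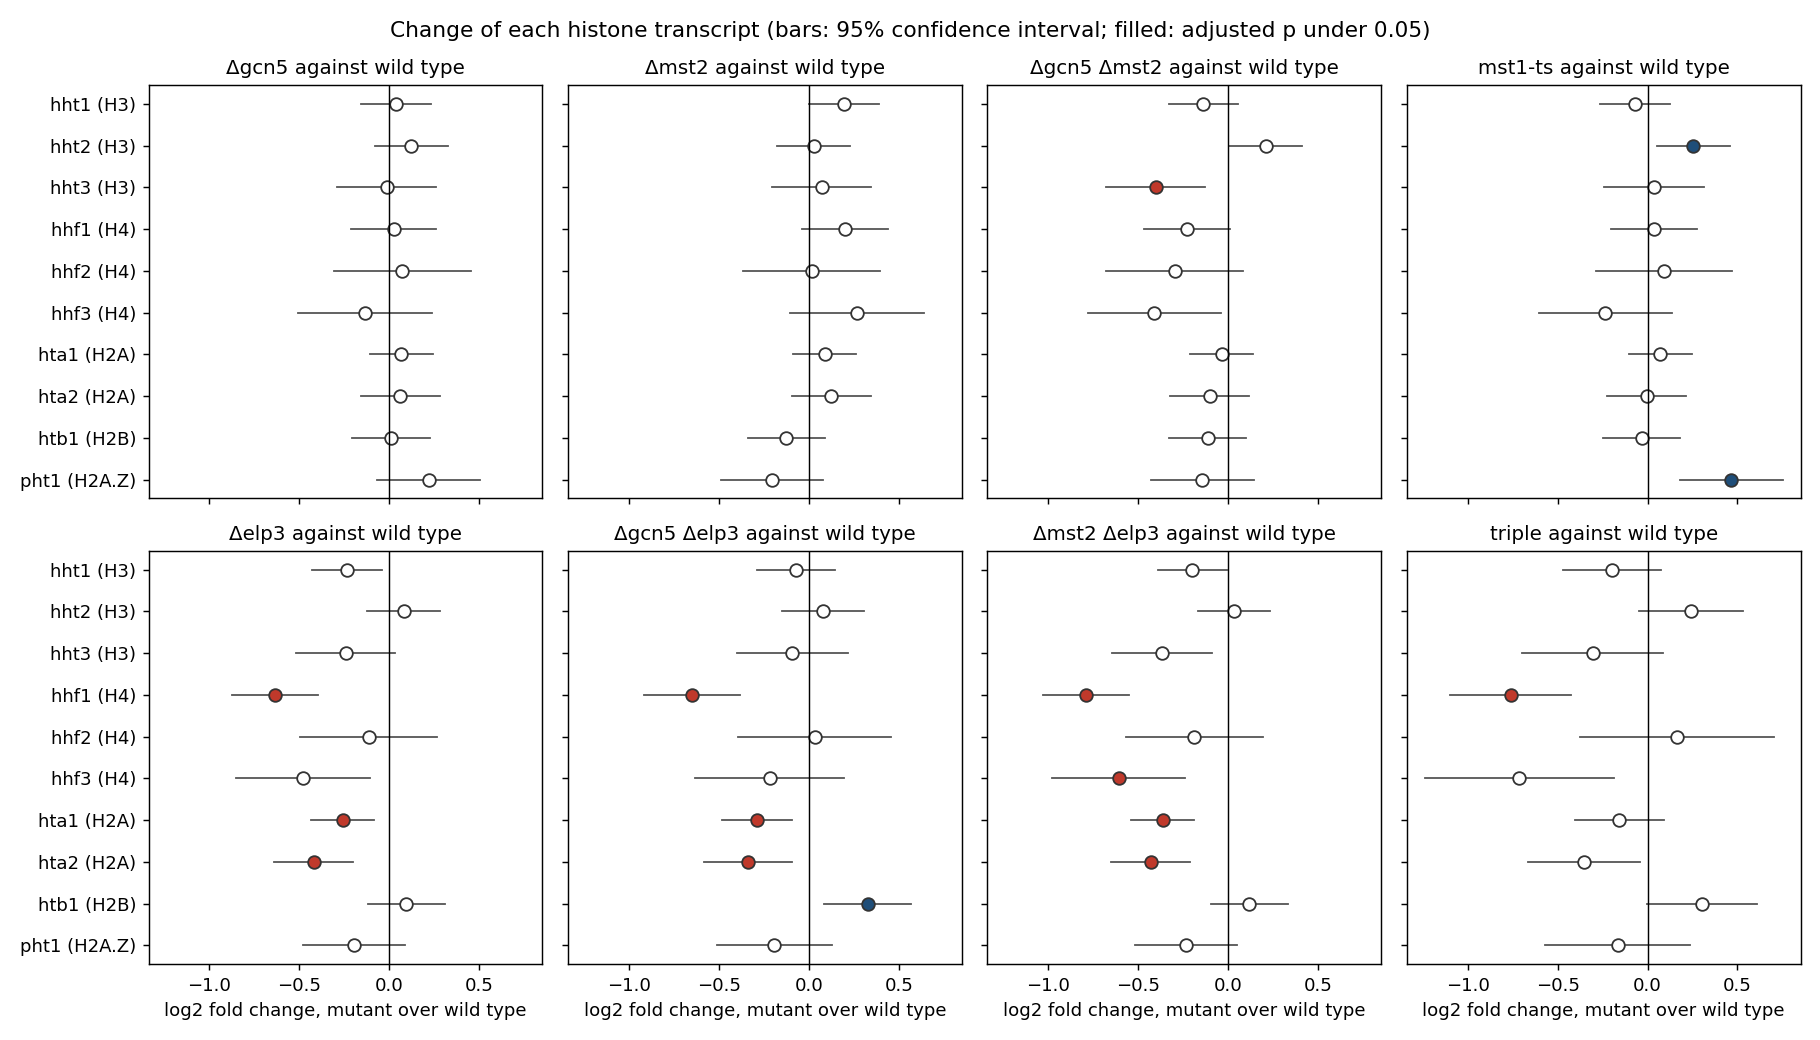
Log2 fold change over wild type of each member in the 8 mutants, with 95% confidence intervals from the limma fit over all 24 arrays. Filled points passed an adjusted p of 0.05, red ones being lower and blue ones higher than wild type; hhf1 is filled in all 4 strains without Elp3 and in none of the others.

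Set against all other arrays, the strains without Elp3 stood apart at 3 of the 10 members. The 9 arrays without Elp3 were all below the other 15 arrays for hhf1 (at most 13.16, against at least 13.26), for hta1 (at most 14.23, against at least 14.28) and for hta2 (at most 13.81, against at least 13.86). Over all features, 1.35% lay wholly below and 3.77% wholly above in the same way, and no member lay wholly above. The nearest of the other arrays was that of the second experiment date, replicate 3 of Δgcn5 Δmst2, for hhf1 (13.26) and hta2 (13.86), and wild type replicate 3 (14.28), followed by this array (14.29), for hta1. Within Δgcn5 Δmst2 the second-date array lay below the mean of the 2 first-date arrays, with a difference of -0.08 for hhf1, -0.08 for hta1 and -0.24 for hta2. The other members were also lower in that array, with differences between -0.40 (hhf2) and -0.04 (hhf3).

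With experiment date in the fit, which takes the date effect from these 3 arrays, none of the members was called in any strain without Elp3. The shares of all features called that are given above come from the fit without date. The log2 fold change of hhf1 in Δelp3 was then -0.56 ± 0.21 (adjusted p = 0.182), that in Δgcn5 Δelp3 -0.57 ± 0.22 (adjusted p = 0.187) and that in Δmst2 Δelp3 -0.71 ± 0.21 (adjusted p = 0.0833). Those of hta2 and hta1 in Δelp3 were -0.18 ± 0.18 (adjusted p = 0.663) and -0.18 ± 0.15 (adjusted p = 0.596). The date-adjusted value of hhf1 thus stayed near the unadjusted one with a larger error, whereas that of hta2 in Δelp3 was -0.18, against -0.42 without the date in the fit. The part of the date in these changes was not tested in wild type, which has no array of the second date.

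In the strains without Elp3, the genes of 2 of the 4 divergent pairs, hta1 with htb1 and hhf1 with hht1, differed in their deviation from wild type. For hta1 and htb1, the deviation of htb1 from its wild-type mean minus that of hta1 was between 0.26 and 0.65 in the 9 arrays without Elp3 (median 0.46), against -0.35 to 0.14 in the other 15 arrays (median -0.11), so that the H2B gene was high relative to its H2A neighbour in each of these arrays. For hhf1 and hht1 the corresponding difference, hht1 minus hhf1, was between 0.11 and 0.82 (median 0.53), against -0.14 to 0.13 (median 0.01), with a narrow overlap. The second-date array of Δgcn5 Δmst2 had -0.16 for the first of these pairs and 0.07 for the second, both within the range of the first-date arrays, but 0.74 for hhf2 with hht2, the highest of the 15 arrays. For hhf2 with hht2 and for hhf3 with hht3 the ranges overlapped widely, with medians of 0.08 against 0.10 and of 0.26 against 0.06. These differences were formed after the members' values were known and carry no test.

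**Figure D3:**
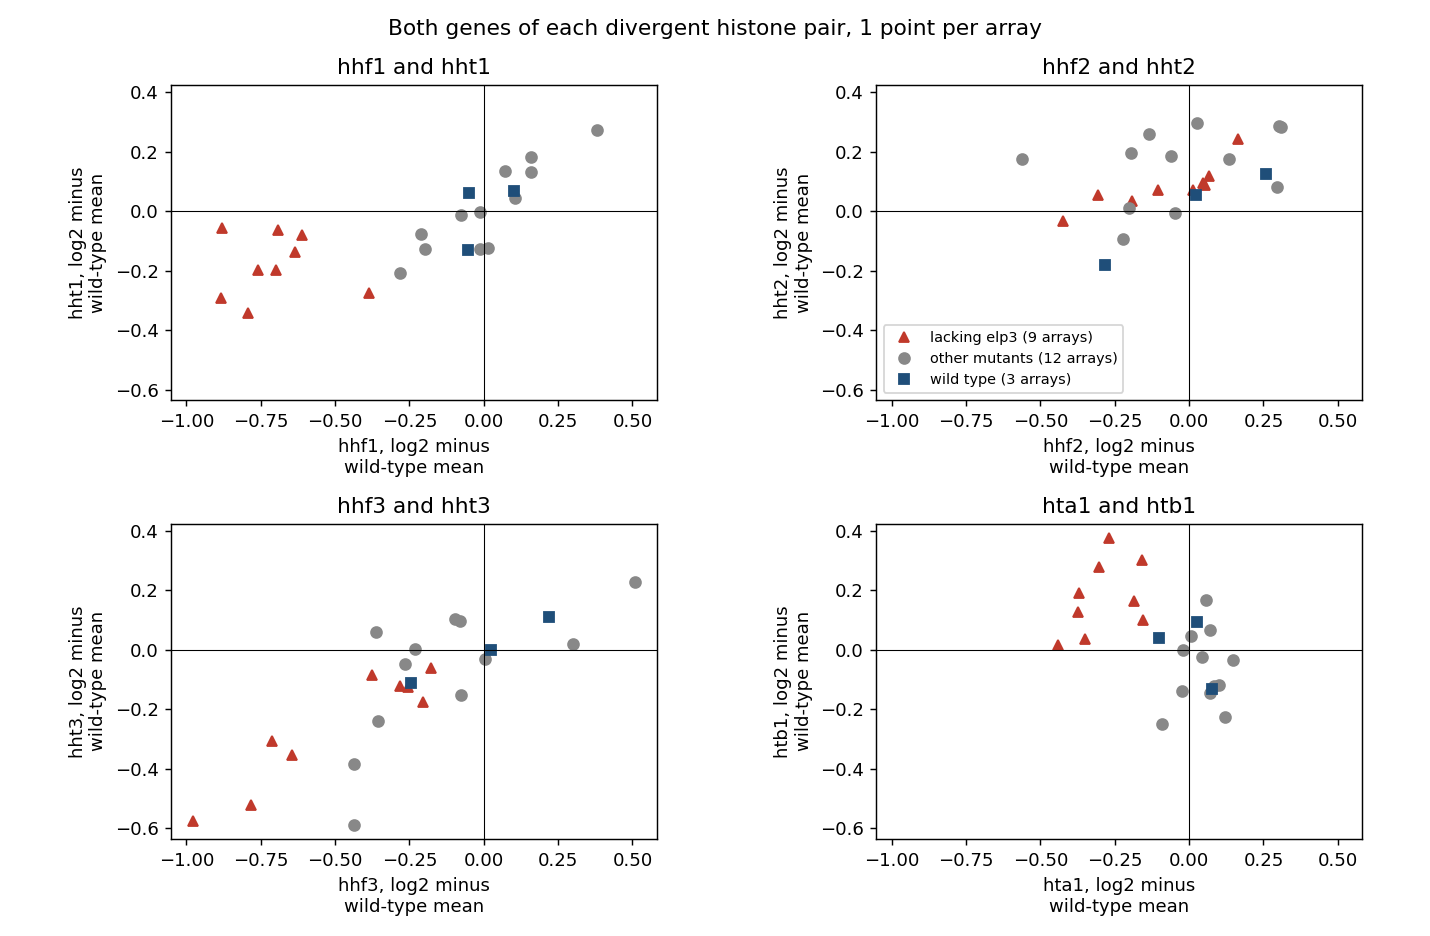
Deviation of both genes of each divergent pair from their wild-type means (log2), 1 point per array, with arrays lacking Elp3 as red triangles, the other mutants as grey circles and wild type as blue squares. For hhf1 and hht1 the red triangles lie to the left of all other points and nearer to 0 on the hht1 axis, and for hta1 and htb1 they lie to the left of the other points and above 0.

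The size of the change of hhf1 depended on the probe set. The genes hhf1, hhf3 and hht1 each have 2 probe sets, of which 1 carries the _x_ suffix that Affymetrix gives to sets with probes shared with other transcripts. For hhf1 the brighter set was the one with this suffix. The other set gave 12.63, 13.07 and 12.06 in Δelp3, against 13.86, 13.58 and 13.53 in wild type, again without overlap. Its log2 fold change was -1.07 ± 0.21 in Δelp3 (adjusted p = 0.00209), -1.22 ± 0.24 in Δgcn5 Δelp3 (adjusted p = 0.00171), -1.38 ± 0.21 in Δmst2 Δelp3 (adjusted p = 0.000281) and -1.76 ± 0.30 in the triple mutant (adjusted p = 0.00111). In each strain without Elp3 the set with shared probes thus showed a smaller change of hhf1. The study's supplementary gene lists give hhf1 with the values of the other set, -1.07 in Δelp3 and -1.76 in the triple mutant. In the other 4 strains both sets gave like values, the widest apart being -0.33 and -0.23 in Δgcn5 Δmst2.

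For hhf3 the set without the suffix gave -0.51 ± 0.23 and the set with it -0.48 ± 0.18 in Δelp3, and the 2 sets lay furthest apart in the triple mutant, with -0.94 ± 0.32 and -0.71 ± 0.25. For hht1 the set with shared probes, which is the dimmer one, was called lower in Δelp3 (-0.35 ± 0.08, adjusted p = 0.00577) and in Δmst2 Δelp3 (-0.32 ± 0.08, adjusted p = 0.00962), whereas the brighter set was not called in any strain. Which transcripts the shared probes bound was not tested.

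**Figure D4:**
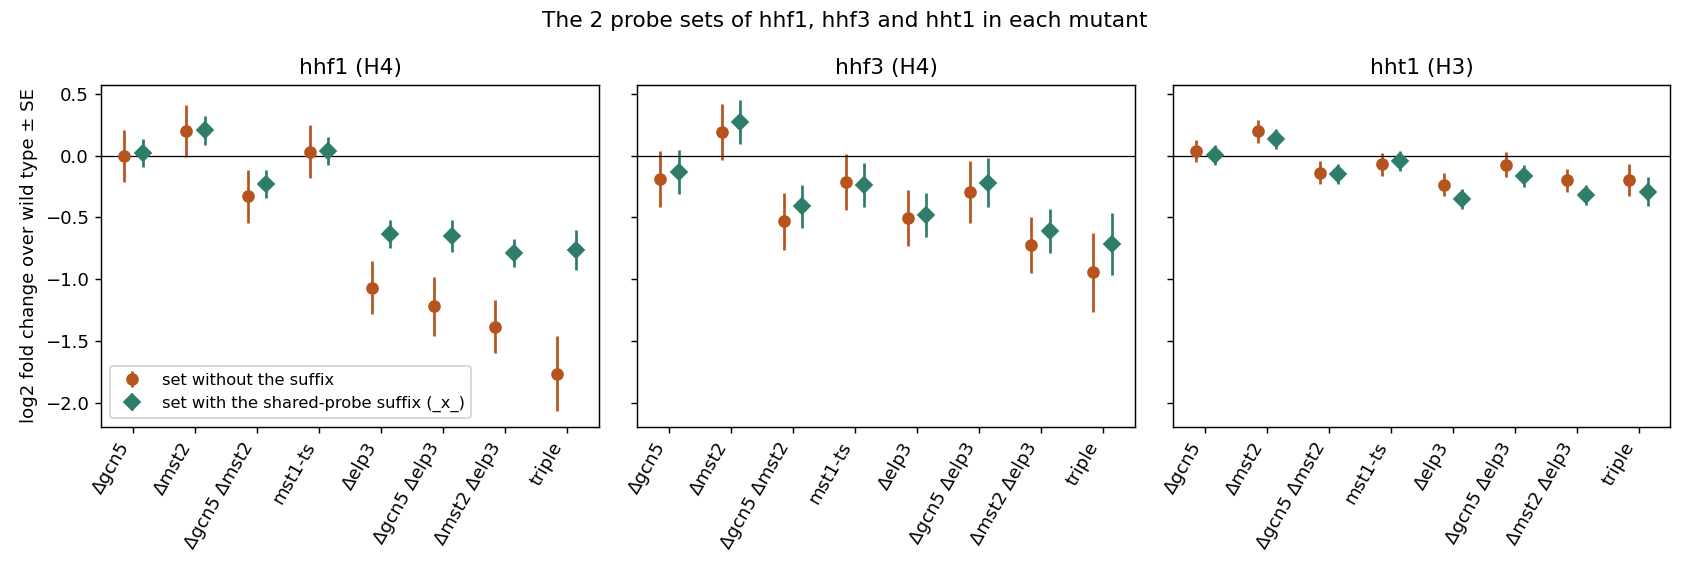
Log2 fold change over wild type (± SE) of the 2 probe sets of hhf1, hhf3 and hht1 in the 8 mutants. Circles are the sets without the shared-probe suffix and diamonds those with it; the 2 sets of hhf1 separate in the 4 strains without Elp3, with -1.76 against -0.76 in the triple mutant.

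Among the 8 mutants, the H2A.Z gene was called in mst1-ts only, in the fit that weights all arrays equally. The level of pht1 was 12.37, 12.39 and 12.29 in mst1-ts, against 11.78, 12.06 and 11.81 in wild type, all 3 mutant arrays being above all 3 wild-type arrays. Its log2 fold change was 0.47 ± 0.14 (adjusted p = 0.0126), which is 1.38 times the wild-type level. The H3 gene hht2 also rose, with 14.38, 14.27 and 14.37 in mst1-ts against 14.21, 14.14 and 13.91 in wild type (log2 fold change 0.25 ± 0.10, adjusted p = 0.0478). These were 2 of 10 members called higher and 0 called lower, where 13.7% of all features were called higher and 21.8% lower. The other 8 members had log2 fold changes between -0.23 (hhf3) and 0.09 (hhf2), with hhf1, hta1 and hta2 at 0.04 ± 0.11, 0.07 ± 0.08 and -0.00 ± 0.10. The median of the 10 members was 0.04, against -0.07 over all features.

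Both calls were near the threshold for some libraries. That on pht1 ended without wild type replicate 1 (log2 fold change 0.42, adjusted p = 0.0538), and held with date in the fit (adjusted p = 0.0115), as all arrays of both groups are of the first date. That on hht2 ended in 18 of the 24 fits that left out 1 library, with an adjusted p of up to 0.221 (without wild type replicate 3), as well as with date in the fit (0.0530), with arrays of the first date only (0.129) and after quantile normalisation (0.0720). Across the 9 groups the mean of pht1 was highest in mst1-ts (12.35 ± 0.05, SD, n = 3), followed by Δgcn5 (12.10 ± 0.27, n = 3) and wild type (11.88 ± 0.15, n = 3), and the other 6 groups lay between 11.65 and 11.74. The values of Δgcn5 overlapped those of both its neighbours in this order. The overlap with wild type came from Δgcn5 replicate 2 (11.84), the array at odds with its label. Replicates 1 and 3 (12.09 and 12.37) lay above every wild-type array (at most 12.06). With weights per array, which did not fully converge, pht1 was also called lower in those 6 groups, with log2 fold changes between -0.32 (Δgcn5 Δelp3, adjusted p = 0.00171) and -0.26 (Δgcn5 Δmst2, adjusted p = 0.00857).

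In Δgcn5 Δmst2 the H3 gene hht3 fell, and it was the only member called, where 11.3% of all features were called lower and 13.6% higher. The level of hht3 was 13.51, 13.65 and 13.30 in Δgcn5 Δmst2, against 14.00, 13.89 and 13.78 in wild type, so that the groups did not overlap, with a log2 fold change of -0.40 ± 0.13 (adjusted p = 0.0318). Its H4 neighbour hhf3 was at 13.08, 13.16 and 13.08, against 13.73, 13.54 and 13.27, which did not pass (log2 fold change -0.41 ± 0.18, adjusted p = 0.0976). The call on hht3 ended without wild type replicate 1 (adjusted p = 0.119) or 2 (0.0704), without Δgcn5 Δmst2 replicate 1 (0.0608) or 3, the array of the second date (0.133, log2 fold change -0.31), and with date in the fit (adjusted p = 0.133). Of the 6 H3 and H4 genes, 5 had negative values (median of the 6 genes -0.26), and hht2 had 0.21 ± 0.10 (adjusted p = 0.121). The H2A and H2B genes had log2 fold changes between -0.11 and -0.04. The median of the 10 members was -0.14, against -0.01 over all features.

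The test of the difference between the double mutant and the sum of its single mutants called no member for gcn5 with mst2, where 0.883% of all features were called higher and 0.502% lower. At an unadjusted p under 0.05, 4 of the 10 members passed, namely hht1 (-0.37 ± 0.13), hht3 (-0.46 ± 0.19), hhf1 (-0.46 ± 0.16) and hhf3 (-0.55 ± 0.25), with adjusted p-values between 0.260 and 0.422. The same 4 genes were called with weights per array, with adjusted p-values between 0.00151 and 0.0388. These weights did not fully converge, and the shares of all features above are from the fit without them. Both single-mutant groups in this test hold a library at odds with its label.

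In the single mutants Δgcn5 and Δmst2 none of the 10 members was called by limma. None of the 4 targeted acetyltransferase genes was called either, so that even the deleted gene did not pass. Each of these groups holds a library at odds with its label, and the absence of calls is limited by this. In Δgcn5, 0% of all features were called higher and 0.12% lower, no member passed an unadjusted p of 0.05, and the members' log2 fold changes were between -0.13 (hhf3) and 0.22 (pht1). In Δmst2, 0% of all features were called higher and 0.161% lower, and 1 member had an unadjusted p under 0.05, hht1, at 14.85, 14.71 and 14.76 against 14.65, 14.64 and 14.45 in wild type (log2 fold change 0.20 ± 0.09, adjusted p = 0.289). Weights per array gave 5 calls in Δmst2, with hht1, hhf1 and hhf3 higher and htb1 and pht1 lower, and 0 in Δgcn5. These weights did not fully converge, and the shares of all features above are from the fit without them. Whether the weighted calls exceed the share of all features called with weights was not tested. The 95% confidence interval in Δgcn5 was -0.21 to 0.26 for hhf1 and -0.07 to 0.50 for pht1, so that changes within these intervals remained possible. Without the libraries at odds with their labels the count of called members was also 0 in both strains, but the log2 fold change of pht1 in Δgcn5, 0.22 with all libraries, was then 0.35 ± 0.14 (adjusted p = 0.163), and 0.44 ± 0.15 (adjusted p = 0.121) without wild type replicate 2 as well.

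Leaving out these 2 libraries changed 2 calls elsewhere through the shared estimate of spread. The H4 gene hhf3 passed in Δelp3 (adjusted p = 0.0491) and the H3 gene hht3 passed in Δmst2 Δelp3 (adjusted p = 0.0474), for 4 and 5 called members in these strains. Without wild type replicate 2 as well, hta1 was no longer called in Δelp3 (adjusted p = 0.0822), hta1 and hta2 no longer in Δgcn5 Δelp3 (0.0744 and 0.0756) and hht3 no longer in Δgcn5 Δmst2 (0.0623). The calls on hhf1 in the 4 strains without Elp3, on hta1, hta2 and hhf3 in Δmst2 Δelp3 and on pht1 in mst1-ts held in both fits.

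Removal of a second HAT from the strain without Elp3 did not move any member past the threshold. Between Δgcn5 Δelp3 and Δelp3, which share the experiment date, the members' log2 fold changes were between -0.03 (hta1) and 0.26 (hhf3), where 0.502% of all features were called higher and 0.602% lower. Between Δmst2 Δelp3 and Δelp3 they were between -0.16 (hhf1) and 0.04 (hht1), where 0.161% were called higher and 0.602% lower. Between the triple mutant and Δelp3 they were between -0.23 (hhf3) and 0.28 (hhf2), where 4.3% were called higher and 5.2% lower. No member passed an unadjusted p of 0.05 in these 3 comparisons, nor was one called with weights per array. For hhf1 the 95% confidence interval of the difference was -0.28 to 0.25, -0.39 to 0.08 and -0.46 to 0.21 in this order of comparisons.

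The tests of departure from additivity called no member either. For gcn5 with elp3, 0.201% of all features were called higher and 0.141% lower, and no member had an unadjusted p under 0.05. For mst2 with elp3, 0.1% were called higher and 0.281% lower, and hhf1 alone had an unadjusted p under 0.05 (-0.36 ± 0.16, adjusted p = 0.483). Both tests span the 2 experiment dates, and each uses a single-mutant group that holds a library at odds with its label.

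The genes that act on histone genes and on their products were followed in the same fit. The list of transcriptional regulators and HIRA subunits had 6 genes, all measured. The activator gene ams2 rose in Δgcn5 Δmst2 (log2 fold change 1.32 ± 0.31, adjusted p = 0.00579), at 11.25, 11.26 and 10.89 against 9.50, 10.05 and 9.89 in wild type. No member was called higher in that strain, nor in Δgcn5, Δmst2, Δelp3, Δmst2 Δelp3 or the triple mutant. In Δelp3 ams2 had -0.58 ± 0.31 (adjusted p = 0.197) and in Δgcn5 Δelp3 -0.81 ± 0.35 (adjusted p = 0.106). The gene teb1, which encodes a telomere-repeat binding factor that binds histone gene promoters, passed in no strain. The HIRA gene hip3 rose in Δgcn5 Δmst2 (0.52 ± 0.17) and in mst1-ts (0.64 ± 0.17), and the HIRA gene hip1 fell in mst1-ts (-0.60 ± 0.14), for 2 risen and 0 fallen in Δgcn5 Δmst2, 1 risen and 1 fallen in mst1-ts and 0 called in each of the other 6 strains. Of all features, 13.6% were called higher and 11.3% lower in Δgcn5 Δmst2, and 13.7% higher and 21.8% lower in mst1-ts.

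Among the 14 histone chaperone genes, all measured, 5 fell in mst1-ts and none rose, where 21.8% of all features were called lower. The largest falls there were those of sim3 (-0.98 ± 0.12), which encodes a chaperone of the centromeric H3 variant, of the Nap1-family gene nap2 (-0.81 ± 0.14) and of asf1 (-0.77 ± 0.21), which encodes a chaperone of H3 and H4. In Δelp3, Δgcn5 Δelp3 and Δmst2 Δelp3 only chz1, whose budding yeast counterpart escorts H2A.Z, fell (-0.79 ± 0.15, -0.63 ± 0.17 and -0.57 ± 0.15). In this order 8.49%, 9.01% and 9.19% of all features were called lower. In Δgcn5 Δmst2 only pcf3, a gene of the chromatin assembly factor CAF-1, fell (-0.48 ± 0.13), and in the triple mutant pcf3 (-0.68 ± 0.18) and sim3 (-0.63 ± 0.18) fell. Of all features, 11.3% were called lower in Δgcn5 Δmst2 and 5.4% in the triple mutant. The gene of the centromeric H3 variant itself, cnp1, rose in the triple mutant (1.12 ± 0.30, adjusted p = 0.0233) and in none of the other 7 mutants.

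The SWR1 complex loads H2A.Z, and 9 of its 10 listed genes were measured. In mst1-ts, the strain in which pht1 rose, 4 of them fell and none rose, where 21.8% of all features were called lower, with the largest changes in vps71 (-2.18 ± 0.42), rvb2 (-1.07 ± 0.11) and swc5 (-0.91 ± 0.17). In Δgcn5 Δmst2, where 11.3% of all features were called lower, 4 fell and none rose, among them swc2, whose budding yeast counterpart binds H2A.Z (-0.96 ± 0.27), swc5 (-0.59 ± 0.17) and rvb1 (-0.53 ± 0.16), while pht1 had -0.14 ± 0.14. In strains without Elp3 only higher values were called, namely yaf9 in Δelp3 (0.46 ± 0.15), yaf9 and arp6 in Δgcn5 Δelp3 (0.72 ± 0.17 and 0.92 ± 0.29), swc2 in Δmst2 Δelp3 (0.97 ± 0.27) and swc3 in the triple mutant (0.89 ± 0.26). These were 1, 2, 1 and 1 of 9 genes, where 13%, 12.5%, 12.7% and 6.36% of all features were called higher in this order.

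The cultures were not synchronised, and in RNA of whole cultures less histone RNA in each cell and fewer cells in S phase cannot be told apart. The list of 12 G1/S genes under the MBF factor, all measured, had 4 genes higher and 1 lower in Δgcn5 Δmst2, where 13.6% of all features were called higher, led by the ribonucleotide reductase gene cdc22 (1.25 ± 0.34) and the replication gene cdc18 (1.08 ± 0.29). In Δelp3, 1 of the 12 fell (the repressor gene nrm1, -0.58 ± 0.20), in Δgcn5 Δelp3, 2 fell (mik1, -1.51 ± 0.35, and cdt1, -0.98 ± 0.29), and in Δmst2 Δelp3, the triple mutant and both single mutants Δgcn5 and Δmst2, 0 were called. In mst1-ts, 4 fell, led by yox1 (-1.33 ± 0.31). Of all features, 8.49%, 9.01% and 21.8% were called lower in Δelp3, Δgcn5 Δelp3 and mst1-ts. The mean level of the 12 genes was 9.80 to 10.80 in the Δelp3 arrays, against 10.44 to 10.66 in wild type. It was 10.07 in both Δgcn5 Δelp3 arrays, and 10.60 to 10.70 in the Δmst2 Δelp3 arrays, where 4 members fell. The mean of 10.80 was that of Δelp3 replicate 3, which had the lowest hhf1 (12.66), hta1 (13.94) and hta2 (13.57) of the Δelp3 arrays. How the levels of both sets of genes relate from array to array was not tested.

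The lists for later phases gave calls in 3 of the strains without Elp3 and 0 in the other 5 mutants. Of 7 measured G2/M genes, spo12 fell in Δelp3 (-1.49 ± 0.38) and Δgcn5 Δelp3 (-1.43 ± 0.42) and cdc15 rose in Δmst2 Δelp3 (0.62 ± 0.21). Of all features, 8.49% and 9.01% were called lower in Δelp3 and Δgcn5 Δelp3, and 12.7% were called higher in Δmst2 Δelp3. Of 5 measured cell separation genes, 2 fell in Δgcn5 Δelp3 (adg3, -0.96 ± 0.26, and mid2, -0.48 ± 0.15) and 1 rose in Δmst2 Δelp3 (adg1, 0.86 ± 0.28), and the median of these 5 genes was -0.52 in Δgcn5 Δelp3 and -0.60 in Δgcn5 Δmst2. Genes of sexual differentiation, which cells switch on when they leave the cycle, gave calls in 6 of the 8 mutants, but not in the same members. The mutants without calls were Δgcn5 and Δmst2, whose groups each hold a library at odds with its label. Of the 6 genes measured, none was called lower and 4 rose in mst1-ts and 4 in Δgcn5 Δmst2, 3 in Δelp3, 2 in Δgcn5 Δelp3, 2 in Δmst2 Δelp3 and 1 in the triple mutant. In this order 13.7%, 13.6%, 13%, 12.5%, 12.7% and 6.36% of all features were called higher. The mean level of the list was 9.83 to 10.00 in mst1-ts and 8.23 to 8.61 in Δelp3, against 7.98 to 8.07 in wild type. In Δelp3 the called genes were mei4, spo6 and isp3 (log2 fold changes 1.93 ± 0.29, 2.05 ± 0.21 and 1.14 ± 0.36), whereas mei2, named here after its values were seen, was at 7.53, 7.49 and 7.61, against 9.60, 9.98 and 9.86 in wild type (-2.27 ± 0.81, adjusted p = 0.0544). In Δgcn5 Δmst2 mei2 rose (4.01 ± 0.81). It was at 13.34, 10.21 and 13.60 in the arrays labelled Δgcn5 and at 9.80, 13.56 and 10.27 in those labelled Δmst2. In both groups replicate 2 is the array at odds with its label. The part of these cell states in the changes of the histone genes was not tested.

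Across the 9 group means the members fell into those that followed the common profile and those that did not. The correlation of a single gene with the mean profile of the 6 H3 and H4 genes (which includes the gene itself) was 0.93 for hhf1, 0.92 for hht1, 0.92 for hht3 and 0.91 for hhf3, but 0.46 for hhf2 and -0.13 for hht2. Both genes of the pair hhf2 and hht2 thus stood apart from the genes of the other H3 and H4 pairs. Of the genes outside this class, hta2 had 0.92, hta1 0.87, pht1 0.53 and htb1 -0.55. Among all named features outside the members, the 5 most like the H3 and H4 profile were the ribosomal protein genes rpl35A01 (0.96), rps1801 (0.93), rpl44 (0.92), rps2801 (0.92) and rpl3802 (0.92).

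The 5 features most like the mean profile of hta1, hta2 and htb1 were nrf1 (0.96), the septin gene cdc3 (0.92), dpm3 (0.91), the hexose transporter gene ght5 (0.91) and ssb3 (0.90). For instance, nrf1 was at 12.97 ± 0.19 in Δelp3 and 12.82 ± 0.06 in Δmst2 Δelp3, against 13.55 ± 0.18 in wild type (SD, n = 3 each). These correlations describe 9 points that share arrays and the split by Elp3 and date. Within groups, after subtraction of the group means and without the single array of the triple mutant, hht3 and hta2 (0.86) and hht1 and hhf2 (0.89) varied together. So did hhf2 and hht2 (0.81), and htb1 stayed between -0.23 and 0.33 with every other member.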

How the data were processed

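The authors hybridised labelled total RNA to Affymetrix yeast arrays and deposited RMA-normalised log2 values for each of the 24 arrays (the study's methods name RMA and limma, with versions not given in the sources used here). These deposited log2 values were used without further scaling. The array has 5028 probe sets, of which 29 are controls and were not used. Of several probe sets of a gene the one with the highest mean was kept (18 dropped), which left 4981 features, 2899 of them named through the platform annotation. A level on an array depends on the probes, so levels were not compared between genes. Array data carry no read depth, and the number of arrays limits the precision.

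Group means over all 24 arrays were fitted with lmFit and eBayes of limma 3.58.1 (R 4.3.3), with 15 residual degrees of freedom, and p-values were adjusted after Benjamini and Hochberg over all 4981 features for each of 14 comparisons. A feature was called at an adjusted p under 0.05 with no fold minimum, and 95% confidence intervals came from the same fit. Values after ± are SE for fold changes and SD for group means. The single array of the triple mutant is assumed to vary like the other groups. An interaction is the change in a double mutant minus the sum of the changes in both single mutants. The fit was tested on simulated data before use.

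The 10 members and the gene lists were chosen with earlier results of these data known. All members are named. Of each other list up to 3 called genes with the largest change are named per comparison, with ams2, teb1, cnp1 and the acetyltransferase genes always named, and the 5 features with the highest correlation to a mean profile over the 9 groups. Of 80 listed genes 77 were matched, cia1 under its symbol asf1. Alternatives were experiment date, single libraries, doubted libraries, array weights, scaling, filters, probe sets, a replicate block, and fold minimums of 1.7 and 3.25. The choice of the probe set without shared probes was added after seeing the data. Replicates are independent isolates by the study's methods, and their numbers do not pair the samples.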

Additional observations from a re-analysis of the deposited data

How the results depend on the processing

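No log2 fold change of a member reversed its direction where it was called. Counts below are called members out of 10, beside 3 in Δelp3, 2 in mst1-ts, 1 in Δgcn5 Δmst2, 4 in Δgcn5 Δelp3, 4 in Δmst2 Δelp3 and 1 in the triple mutant, each against wild type. With experiment date in the fit they were 0, 1, 0, 0, 0 and 0 in this order. With arrays of the first date only, mst1-ts had 1 and Δgcn5 Δmst2 0. Without the 3 doubted libraries Δelp3 had 2, Δgcn5 Δmst2 0 and Δgcn5 Δelp3 2. After quantile normalisation mst1-ts had 1, Δelp3 2, Δgcn5 Δelp3 3 and Δmst2 Δelp3 5, as hta1 was lost in Δelp3 and Δgcn5 Δelp3. A trended, robust prior gave 5 in Δelp3 and 5 in Δmst2 Δelp3. Arrays centred on their median gave 5 in Δmst2 Δelp3. The mean of all probe sets of a gene gave 4 in Δelp3 and 5 in Δmst2 Δelp3. Array weights gave 5 in Δmst2, 6 in Δelp3, 4 in mst1-ts, 7 in Δgcn5 Δmst2 and 5 in Δgcn5 Δelp3. They also gave 7 in Δmst2 Δelp3, 7 in the triple mutant and 4 for the interaction of gcn5 and mst2. With these weights pht1 was also called lower in 6 strains, and the weights did not fully converge. The shares of all features given above belong to the fit without these alternatives and cannot be set beside the counts here. With the brightest probe set of each gene, a fold of at least 1.7 left 1 member, hhf1, in Δmst2 Δelp3 and 0 in each other comparison. The larger fold minimum left 0 in all of them. These counts depend on the probe set. By the log2 fold changes given above, the other set of hhf1 exceeded a fold of 1.7 in each strain without Elp3. In the triple mutant it also exceeded the larger minimum. With only the arrays of the groups compared, Δelp3 had 2, mst1-ts 1, Δgcn5 Δmst2 0, Δgcn5 Δelp3 1, Δmst2 Δelp3 3 and the triple mutant 0. Leaving out 1 library at a time gave 0 to 1 in Δgcn5 Δmst2, between 1 and 2 for mst1-ts, 1 to 4 in Δgcn5 Δelp3, 2 to 5 in Δelp3, 3 to 5 in Δmst2 Δelp3, 1 to 2 in the triple mutant and 0 in the other comparisons. The cause of these differences was not tested.

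With the replicate number as a block (replicate block), 3 members were called in Δgcn5 Δelp3, as htb1 was lost, and all other counts were the same. Deviations of samples with the same number had a median correlation of -0.014 over 77 pairs, against 0.002 over 154 pairs with different numbers, so the numbers did not pair the samples. The number of arrays, down to 1 in the triple mutant, limits what could be called.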
